A study of Bombyx mori with 4 samples.

Results

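Dehydrogenases, reductases and the enzymes of glycolysis were examined in the larval testis of the silkworm Bombyx mori. The members were the array probes whose gene description in the annotation table of the study held a word such as dehydrogenase, reductase, aldolase, enolase, phosphoglycerate, phosphofructokinase, pyruvate kinase, transketolase or citrate synthase. Only part of that table, 1999 rows, was used here, so the members are those found in these rows and not every such enzyme on the array. Descriptions with the word mitochondrial, NADH dehydrogenase, succinate dehydrogenase or ubiquinol were left out, as was the ribonucleotide reductase RRM1. This gave 106 of the 43803 probes on the array, from 55 expressed sequence tags (ESTs, the cDNA sequences from which the probes were designed) and with 44 of the 840 gene symbols in the annotation rows used. The symbols are those of human homologs, so the role of each enzyme below is that of its homolog. The rule also looked for hexokinase, triosephosphate isomerase and aconitase, for which the rows used gave no member, and these were not analysed here.

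The op mutant is a spontaneous mutant with a translucent larval skin, a low content of uric acid and infertile males. Its mutation has been mapped to a chromosome, but the causative gene was not given, so the op group stands for a phenotype and not for a known lesion. RNA was taken from the testis of op larvae and of wild-type larvae of the same strain, o751, on day 3 of the fifth instar, and both were reared on mulberry leaves under the same light and temperature. There were 2 op arrays and 2 wild-type arrays, numbered replicate 1 and replicate 2 in each genotype, on 1 slide. The methods speak of n = 5 for each genotype as well as of 2 samples of each on a slide for screening, and 4 arrays were analysed here. Whether larvae were pooled is not stated, so the p-values measure only the spread between these samples, which may be technical.

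In glycolysis, phosphofructokinase commits sugar phosphate to breakdown, aldolase splits it, and glyceraldehyde-3-phosphate dehydrogenase, phosphoglycerate kinase, enolase and pyruvate kinase carry the fragments to pyruvate with a yield of NADH and ATP. Dehydrogenases and reductases move electrons between their substrates and the carriers NAD, NADP or flavin, so the same carriers link sugar breakdown, the citrate cycle, the clearance of aldehydes and the making and breaking of fats and amino acids. Developing male germ cells take much of their fuel from the somatic cells around them, and both kinds of cell were present in the whole testis.

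All values below are normalized log2 signals, the log2 of the signal of a spot after background subtraction minus the 75th percentile of its array, so 0 is the level of that percentile. Differences are op minus wild type on the log2 scale, with the standard error (SE) of limma. Signals well above background were seen at 68.0% and 72.2% of all probes on the op arrays, against 72.3% and 67.8% on the wild-type arrays, and no spot was saturated. The test took in every probe that 1 genotype or both showed well above background on each of its arrays. This held for 30376 probes and for 99 of the 106 members. Of these 99, 97 were well above background on all 4 arrays, and 2, a UGDH and an HPGD probe, passed through 1 genotype alone. The other 7 members were too dim to be tested. Among them were the sole probes of ALDH3A1 and AKR1C2, 1 probe each of UGDH, AKR1A1 and AKR1B1 whose other probe was tested, and the sole probe of a second PKM EST. Replicates were less alike in op, where the SD of the difference between the 2 arrays over all tested probes was 0.69, than in wild type, where it was 0.36.

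No member passed the test. Of the 99 tested members, 0 had an adjusted p below the threshold of 0.05 by limma with Benjamini-Hochberg adjustment, where 0.316% of all tested probes did. The smallest adjusted p of a member was 0.084. At an unadjusted p below 0.05 there were 28 members, all higher in op, and 18.7% of all tested probes, of which 10.6% were higher in op and 8.03% lower. That split of all probes turned with the scaling, with 2573 of 5842 higher in op after quantile normalization, 2397 of 5951 after the median shift and 1904 of 4062 with no scaling. Among members it was 25 of 25, 26 of 27 and 21 of 23. Among members, 74 had a difference above 0, where 53.2% of all tested probes did. The median difference was 0.22 over the members and 0.03 over all tested probes. Both op arrays lay above both wild-type arrays at 52 members, where 28.8% of all tested probes did so. They lay below at 11 members, where 24.9% of all tested probes did so. The remaining 36 members overlapped. Of the 42 symbols with a tested probe, 29 had every probe above 0, 8 had every probe below 0 and 5 had probes of both signs. The number of calls depended on single arrays. Leaving out op replicate 1 gave 17 calls of the 99, where 7.94% of all tested probes were called. Leaving out op replicate 2 gave 18, where 7.79% of all were called, and 2 of the 18 were the UGDH and HPGD probes that had passed through 1 genotype alone. Leaving out wild type replicate 1 or wild type replicate 2 gave 2 each time, both of CHDH, where 0.184% and 0.109% of all were called. With an op array left out, the spread was estimated from the wild-type pair alone. With a wild-type array left out, it was estimated from the op pair alone.

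**Figure D1:**
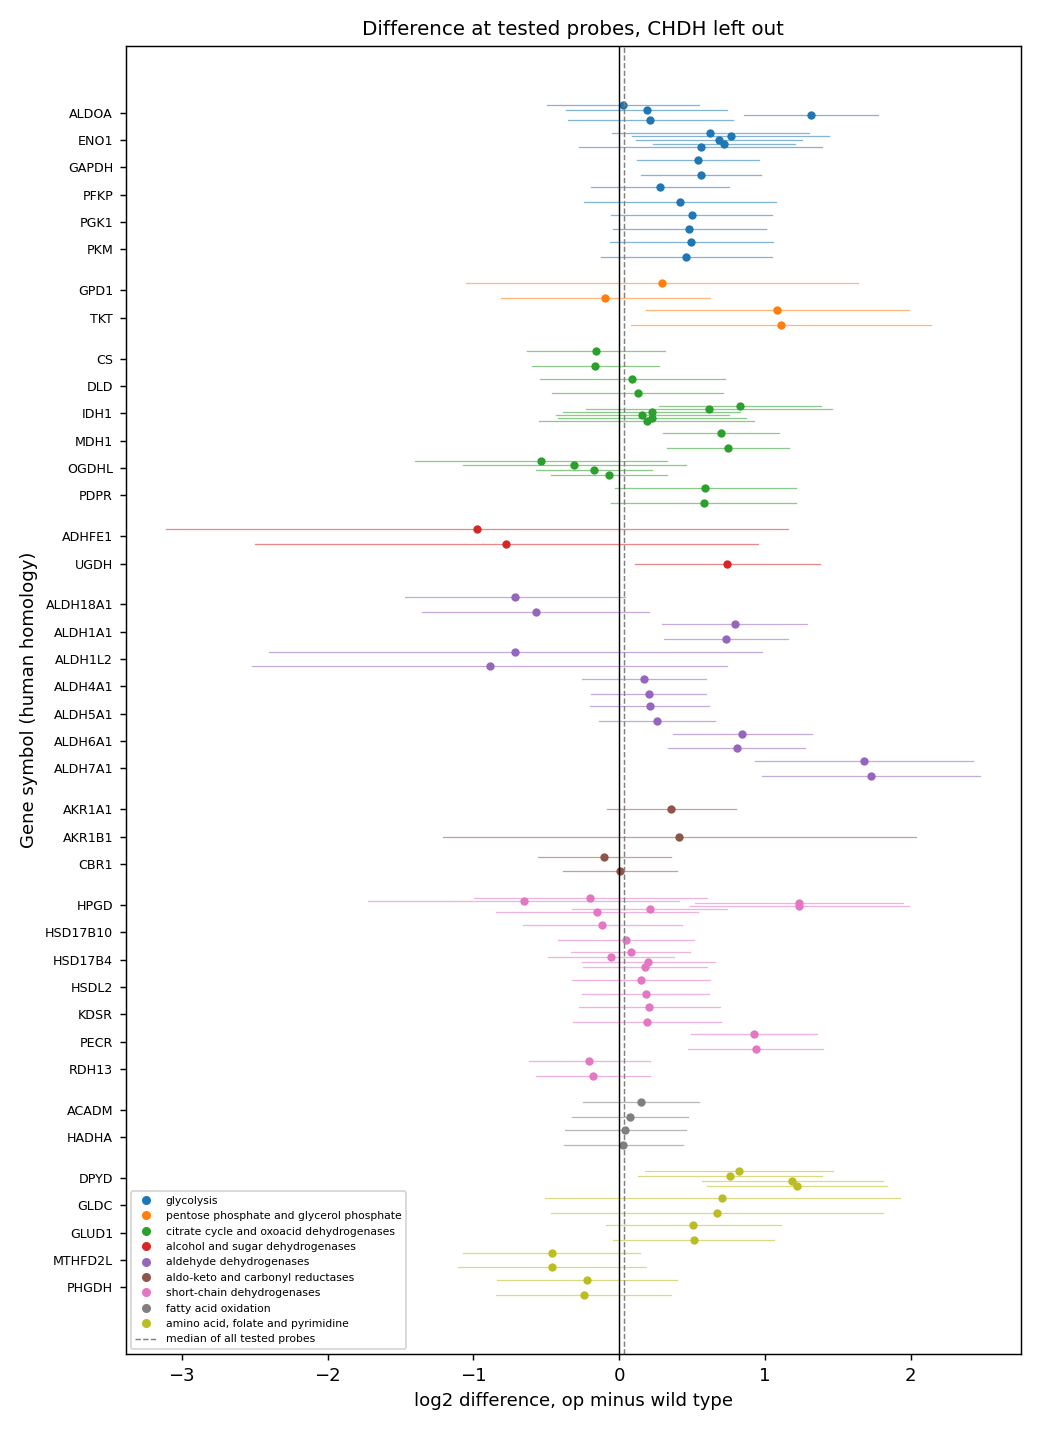
The log2 difference between op and wild type (horizontal axis, op minus wild type) at tested member probes, in rows by gene symbol and colored by role. Points are fitted differences, lines their 95% confidence intervals, and the dashed line the median of all tested probes at 0.03. All glycolysis points lie above 0, and the aldehyde dehydrogenases run from -0.89 to 1.73. The CHDH probes, at 7.22 and 7.36, are left out.

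Other kinds of cell in the testis were followed by their marker genes, by human homology. The 7 germ line probes (NANOS3, PIWIL4, AURKC and TUBA3D) were all well above background. Their summed signal, scaled to the array percentile, was 247 and 190 in op, against 207 and 231 in wild type. It came mostly from the brightest probe, Ka01220_828 of TUBA3D, where the genotypes overlapped with a difference of 0.02. The name of this probe is by homology alone, and whether its silkworm gene is limited to germ cells is not given. Both op arrays lay above at 1 germ line probe, of AURKC, and below at 3, of PIWIL4 and TUBA3D. Of all tested probes, they lay above at 28.8% and below at 24.9%, the shares to set beside the counts of each list. Of the 6 muscle probes, the 4 of TNNT3 and TPM2 were bright enough to be tested and had both op arrays above both wild-type arrays, while those of TPM3 and TMOD1 were at background on all arrays, and the summed signal was 3.98 and 5.36 in op, against 0.74 and 2.19 in wild type. Of the 10 basement membrane probes (COL4A5, COL4A6, LAMA4, NID1 and PXDN), the op arrays lay above at 8, with sums of 6.21 and 7.70 in op, against 5.48 and 4.83 in wild type. The 14 fat storage probes (PLIN4, FITM2, SCD, SCD5 and CIDEC) summed to 59.1 and 25.6 in op, against 24.4 and 20.8 in wild type. That sum was carried by the 6 probes of SCD, a fatty acid desaturase, all with both op arrays above. Without SCD it was 9.11 and 9.496 in op, against 11.9 and 12.2 in wild type, and both CIDEC probes had the op arrays below. The 25 midgut enzyme probes summed to 13.4 and 12.7 in op, against 13.4 and 14.0 in wild type. That sum came mostly from MEP1B, whose arrays overlapped. Of the 19 tested midgut probes, both op arrays lay above at 4 and below at 6, against 28.8% and 24.9% of all tested probes. ANPEP was above, with differences of 1.93 and 1.94, and CPA4 below, with -2.58 and -1.56. No probe of these lists passed the test. Muscle, basement membrane and SCD signals were thus higher on both op arrays, as 52 members were, and their part in the differences of the members was not tested. In a whole tissue, fewer cells of a type and less RNA per cell cannot be told apart.

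None of the 17 tested glycolysis probes passed the test, though all had a difference above 0, between 0.03 and 1.31. Of all tested probes, 53.2% had a difference above 0. Both op arrays lay above both wild-type arrays at 14 of the 17, where 28.8% of all tested probes did so. The median difference was 0.50, and 6 of the 17 had an unadjusted p below 0.05, all higher in op. Of all tested probes, 18.7% had such a p, 10.6% with the higher value in op. The direction of the lowest probe, of ALDOA, turned under 3 other scalings of the arrays, and the other 16 kept theirs under those scalings.

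PFKP, phosphofructokinase, which makes fructose 1,6-bisphosphate at the committing step, had signals of -1.66 and -1.92 in op, against -1.94 and -2.48 in wild type. The lower op array and the higher wild-type array nearly touched. The difference was 0.42 ± 0.25 (SE, adjusted p = 0.431, limma). It ranged from 0.15 without wild type replicate 2 to 0.69 without wild type replicate 1.

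ALDOA, aldolase, which cleaves that bisphosphate to 2 triose phosphates, was measured by 2 ESTs with a pair of probes each, and 3 of the 4 probes had overlapping genotypes. Probe Ka00647_469 had 7.95 and 7.62 in op, against 7.65 and 7.87 in wild type, a difference of 0.03 ± 0.20 (SE, adjusted p = 0.955), and its partner Ka00647_528 gave 0.19 ± 0.21 (SE, adjusted p = 0.657). The probes of the second EST disagreed. Its brighter probe, Ka00937_627, gave 0.98 and 0.52 in op, against 0.50 and 0.57 in wild type, a difference of 0.21 ± 0.21 (SE, adjusted p = 0.625) with overlapping arrays. Its dimmer probe, Ka00937_490, gave -1.95 and -2.18 in op, against -3.46 and -3.30 in wild type. There the arrays of each genotype lay close together and the op arrays were clearly above. The difference was 1.31 ± 0.17 (SE, adjusted p = 0.084), which is 2.49-fold with a 95% confidence interval of 1.81 to 3.42, and it had the smallest adjusted p of any member. Dropping an op array changed this difference to 1.20 (replicate 1 dropped) or 1.43 (replicate 2 dropped). Dropping a wild-type array changed it to 1.24 (replicate 1 dropped) or 1.39 (replicate 2 dropped). Its smallest value under any alternative was 0.81, after normexp background correction. The probes of this EST were 1.10 apart in their difference, the widest gap among the 47 member ESTs with a pair of tested probes, where the median gap was 0.05. Of all 6432 ESTs with such a pair, 1.48% had a gap at least as wide. Why the probes differ was not tested.

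GAPDH, which oxidizes triose phosphate and reduces NAD, is often taken as a reference gene. Its probe Ka02634_963 had 5.98 and 5.83 in op, against 5.32 and 5.36 in wild type. The arrays of each genotype lay within 0.15 of each other, and the difference was 0.56 ± 0.16 (SE, adjusted p = 0.190), a 1.48-fold higher level in op with an interval of 1.11 to 1.96. PGK1, phosphoglycerate kinase, which makes the first ATP of the pathway, had 1.45 and 1.85 in op, against 1.18 and 1.15 in wild type. The wild-type arrays were nearly equal and both op arrays were above them, by 0.48 ± 0.20 (SE, adjusted p = 0.296), or 0.28 without op replicate 2.

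ENO1, enolase, which forms phosphoenolpyruvate, had 3 ESTs, and whether they come from 1 or several silkworm genes is not given. Probe Ka01730_319 had 3.26 and 3.89 in op, against 2.78 and 2.84 in wild type, a difference of 0.77 ± 0.26 (SE, adjusted p = 0.235). Probe Ka01769_404 had 4.74 and 5.05 in op, against 4.12 and 4.23 in wild type, a difference of 0.72 ± 0.18 (SE, adjusted p = 0.172). Both probes showed the higher value on op replicate 2 and nearly equal wild-type arrays. Probe Ka02594_46 had -4.30 and -3.48 in op, against -4.53 and -4.37 in wild type, and its difference of 0.56 ± 0.31 (SE, adjusted p = 0.411) rested mostly on op replicate 2. Without op replicate 1 these probes passed the test, at 1.08, 0.88 and 0.97, and without op replicate 2 they did not, at 0.45, 0.56 and 0.15. PKM, pyruvate kinase, which closes the pathway, had 3.84 and 4.34 in op, against 3.64 and 3.63 in wild type at Ka02530_684. Again op replicate 2 was the higher array, and the difference was 0.46 ± 0.22 (SE, adjusted p = 0.350), or 0.21 without op replicate 2.

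The late enzymes of the pathway thus shared an order of the op arrays. All tested probes of PGK1, ENO1 and PKM were higher on op replicate 2 than on op replicate 1, with medians of 0.42, 0.61 and 0.48. These probes came from 1, 3 and 1 ESTs, and the order compares 1 array with 1 array. GAPDH and PFKP were lower on op replicate 2, at -0.15 and -0.22, and only 1 of the 4 ALDOA probes was higher there. Of the 17 tested glycolysis probes, 10 were higher on op replicate 2, where 14968 of all 30376 tested probes were. The median glycolysis difference was 0.71 without op replicate 1 and 0.38 without op replicate 2. PCK1 and PCK2, the phosphoenolpyruvate carboxykinases of the reverse pathway, had the same order of the op arrays. Probe Ka01206_832 of PCK1 had 4.14 and 5.19 in op, against 3.84 and 4.12 in wild type. Its lower op array was barely above the higher wild-type array, and at the other PCK1 probes the genotypes overlapped. The summed signals of the muscle and basement membrane markers were also higher on op replicate 2, and their part was not tested.

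**Figure D2:**
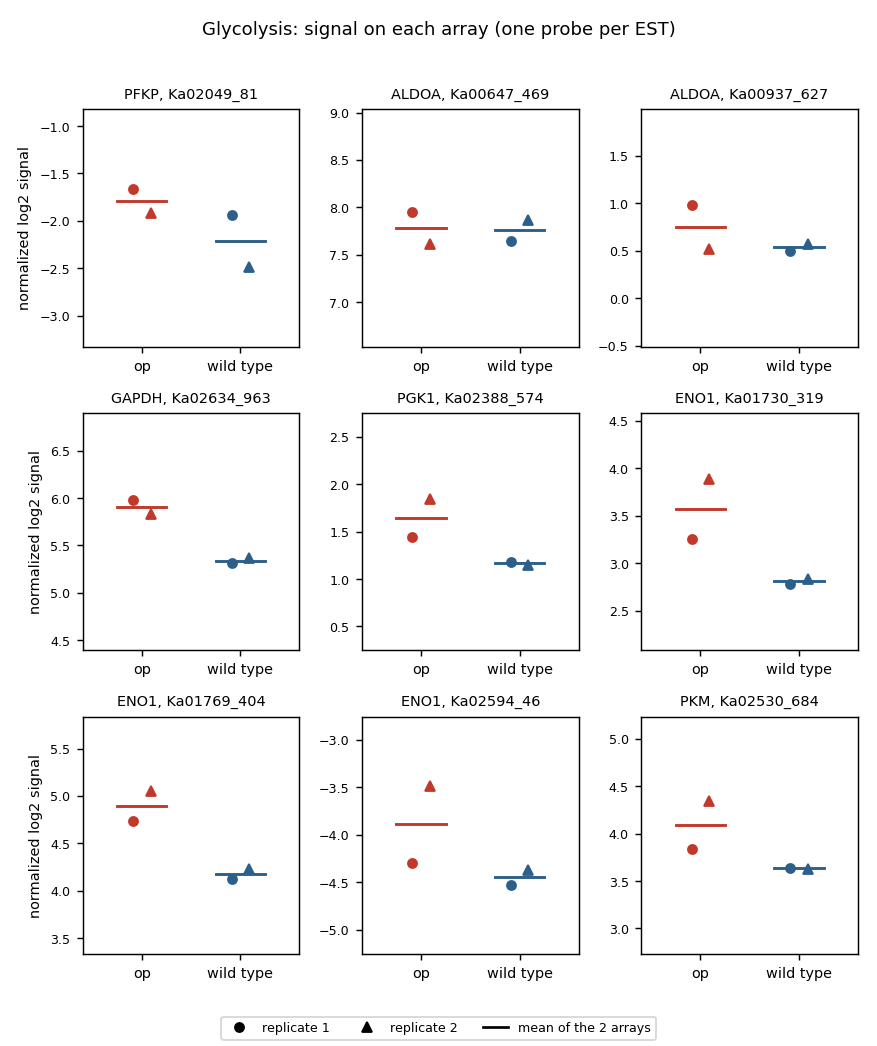
Normalized log2 signal (vertical axis, a span of 2.5 in each panel) on each op and wild-type array for 1 probe of each of the 9 tested glycolysis ESTs; circles are replicate 1, triangles replicate 2 and bars the mean of the 2 arrays. Both op arrays lie above both wild-type arrays in every panel other than the ALDOA panels, and op replicate 2 is the higher op array for PGK1, ENO1 and PKM.

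TKT, transketolase, which moves carbon between the pentose phosphate pathway and glycolysis, was higher on both op arrays. Probe Ka01852_575 had 3.09 and 2.05 in op, against 1.61 and 1.31 in wild type, and probe Ka01852_314 had 0.90 and -0.01 in op, against -0.54 and -0.74 in wild type. The op arrays lay more than 1 apart at the first probe, with op replicate 1 the higher one, and its difference was 1.11 ± 0.39 (SE, adjusted p = 0.248). Without op replicate 2 it was 1.63 and passed the test (adjusted p = 0.030), and without op replicate 1 it was 0.59 and did not. GPD1, the glycerol-3-phosphate dehydrogenase that makes glycerol phosphate with cytosolic NADH, had 2 probes of opposite sign. Ka01134_2170 had -0.31 and 0.33 in op, against 0.38 and -0.94 in wild type, so the wild-type arrays spanned the op arrays, and the difference was 0.29 ± 0.51 (SE, adjusted p = 0.783). Leaving out op replicate 2 gave -0.03, and leaving out wild type replicate 2 gave -0.37.

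In the group of citrate cycle enzymes and oxoacid dehydrogenases the members did not move together. Of 18 tested probes, 12 were above 0 and 6 below, with a median of 0.17, where 53.2% of all tested probes were above 0. The 18 probes ranged from -0.54 to 0.83, and 0 passed the test. The 12 above were of the cytosolic MDH1 and IDH1, of PDPR and of DLD, and the 6 below were of CS and OGDHL. MDH1, the cytosolic malate dehydrogenase of the malate-aspartate shuttle, was above at both probes. Its probe differences were 0.70 and 0.75 with adjusted p of 0.137 and 0.136, and its arrays within a genotype differed by at most 0.14.

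IDH1, the cytosolic isocitrate dehydrogenase that makes NADPH, had 3 ESTs. Only Ka00683 kept its op arrays above both wild-type arrays at each of its probes. Ka00683_1050 had 2.30 and 2.75 in op, against 1.72 and 1.68 in wild type, a difference of 0.83 ± 0.21 (SE, adjusted p = 0.170), and its other probe, Ka00683_699, gave 0.61 ± 0.32 (SE, adjusted p = 0.379). Both passed without op replicate 1, at 1.05 and 1.03, and not without op replicate 2, at 0.60 and 0.20. The 4 probes of the other IDH1 ESTs lay between 0.16 and 0.23 with overlapping arrays. PDPR, a regulatory subunit of pyruvate dehydrogenase phosphatase, had differences of 0.59 and 0.58 (adjusted p = 0.284 and 0.296). DLD, the dihydrolipoamide dehydrogenase shared by the oxoacid complexes, gave 0.09 and 0.13.

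CS and OGDHL of the cycle lay on the other side of 0 at every probe. CS, citrate synthase, which lets acetyl-CoA into the cycle, had differences of -0.16 and -0.17, with intervals from -0.63 to 0.31. OGDHL, an oxoglutarate dehydrogenase, had differences from -0.54 to -0.07 over 4 probes, the lowest of which, Ka00577_302, was -0.97 and passed the test without op replicate 2 (adjusted p = 0.043) and was -0.10 without op replicate 1. None of these passed the test with all 4 arrays.

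Neighbours of the cycle outside the keyword rule also fell on both sides of 0. Of 46 probes of 18 related enzymes, 41 were tested and 0 passed, with 29 above 0 and 12 below and a median of 0.32. Of all tested probes, 53.2% were above 0. MDH2, the malate dehydrogenase of mitochondria, gave 0.58 and 0.44 (adjusted p = 0.234 and 0.236). The probes of IDH2, another isocitrate dehydrogenase, lay between 0.54 and 0.85 (adjusted p from 0.296 to 0.479). GBE1, the branching enzyme of glycogen, gave 0.87 and 0.79 (adjusted p = 0.109 and 0.130), and PYGL, glycogen phosphorylase, gave 0.70 (adjusted p = 0.143). FH, fumarase, was below, at -0.69 and -0.64 (adjusted p = 0.143 and 0.194). MPC1, a subunit of the mitochondrial pyruvate carrier, gave -0.53 and -0.57, ME3, a malic enzyme, gave -0.57 and -0.80, and DLAT, the acetyltransferase of pyruvate dehydrogenase, gave -0.29 and -0.47. Both op arrays lay below both wild-type arrays at 8 of the 41 tested probes, which were the probes of FH, MPC1, ME3 and DLAT. Of all tested probes, 24.9% did so. They lay above at 16 of the 41, where 28.8% of all tested probes did so.

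The largest difference of any member was that of CHDH. The homolog is choline dehydrogenase, a flavin enzyme of the GMC oxidoreductase family, of which insects hold many members, and the silkworm substrate is not given. Probe Ka02347_663 had 4.38 and 5.04 in op, against -4.60 and -0.70 in wild type. Probe Ka02347_705 of the same EST had 3.92 and 4.56 in op, against -4.84 and -1.12 in wild type. Both wild-type arrays were well above background and far below the op arrays, but they lay 3.90 and 3.72 apart from each other, with wild type replicate 1 the lower one. The differences were 7.36 ± 1.32 and 7.22 ± 1.26 (SE, adjusted p = 0.114 and 0.113), or 164-fold and 149-fold, and the 95% confidence interval of the first ran from 3.85 to 10.86 on the log2 scale. The first difference was 5.41 without wild type replicate 1 and 9.31 without wild type replicate 2. The gap between the wild-type arrays does not enter the spread of those fits. With all 4 arrays, both probes passed the limma test after normexp background correction, at 6.39 and 6.03 (adjusted p = 0.030 and 0.025). Both also passed with a replicate block (limma, adjusted p = 0.018 and 0.017). Neither passed under the other alternatives that kept all arrays. The muscle markers TNNT3 and TPM2 shared the low value on wild type replicate 1. TPM2 probe Ka01810_247 had -0.63 and -0.06 in op, against -3.63 and -1.88 in wild type. TNNT3 probe Ka00556_756 had 0.91 and 1.27 in op, against -1.51 and 0.07 in wild type, and their part in the CHDH difference was not tested.

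ADHFE1, an iron-dependent alcohol dehydrogenase that oxidizes hydroxybutyrate, had arrays more than 1 apart in both genotypes. Probe Ka00192_355 had -2.95 and -1.09 in op, against -1.79 and -0.30 in wild type, with replicate 2 the higher array in each. The difference of -0.97 ± 0.80 (SE, adjusted p = 0.563) was smaller than the gap between the arrays of either genotype. It ranged from -0.05 without op replicate 1 to -1.90 without op replicate 2. UGDH, UDP-glucose dehydrogenase, which makes the sugar acid of proteoglycans, had -5.04 and -5.61 in op, against -6.05 and -6.08 in wild type at its tested probe. It was well above background on both op arrays and on only 1 wild-type array, so that its difference of 0.74 (adjusted p = 0.227) lay near the detection limit, and it entered the test through op alone.

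Aldehyde dehydrogenases, which oxidize aldehydes to acids, lay on both sides of 0. Of 14 tested probes of 7 symbols, 10 were above 0 and 4 below, and 0 passed the test. Of all tested probes, 53.2% were above 0. Both op arrays lay above both wild-type arrays at 10 of the 14 and below at 2, against 28.8% and 24.9% of all tested probes. An unadjusted p below 0.05 was seen at 6, all higher in op, and at 18.7% of all tested probes, 10.6% higher in op. ALDH7A1, antiquitin, which acts in lysine breakdown, was the furthest above. Probe Ka01485_972 had -0.78 and -0.17 in op, against -2.01 and -2.39 in wild type, and Ka01485_1012 had -1.23 and -0.68 in op, against -2.40 and -2.87 in wild type. The gap between genotypes exceeded the spread within them, and the differences were 1.73 ± 0.28 and 1.68 ± 0.28 (SE, adjusted p = 0.107 and 0.108), or 3.31-fold and 3.20-fold. The first was 2.03 without op replicate 1 and 1.42 without op replicate 2, and the second was 1.96 and 1.40.

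ALDH6A1, methylmalonate semialdehyde dehydrogenase of valine breakdown, had 3.73 and 3.43 in op, against 2.76 and 2.80 in wild type at Ka01584_586. The difference was 0.81 ± 0.18 (SE, adjusted p = 0.142), and its other probe gave 0.84 (adjusted p = 0.137). Both passed without op replicate 2, the first at 0.95, and neither did without op replicate 1, the first at 0.66. ALDH1A1, a retinal dehydrogenase in vertebrates, gave 0.79 and 0.73 (adjusted p = 0.155 and 0.142), and the first of these passed without op replicate 2, at 0.95, and not without op replicate 1, at 0.63. The probes of ALDH4A1 and ALDH5A1, which act in proline and GABA breakdown, lay between 0.17 and 0.26.

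The aldehyde dehydrogenases below 0 were ALDH18A1 and ALDH1L2. ALDH18A1, which reduces glutamate on the way to proline, had both op arrays below both wild-type arrays at each probe, with differences of -0.71 and -0.57 (adjusted p = 0.284 and 0.375), and both probes passed without op replicate 1, at -1.07 and -0.95, but not without op replicate 2, at -0.36 and -0.20. ALDH1L2, a folate enzyme that oxidizes formyl groups, had -1.15 and -3.02 in op, against -1.39 and -1.35 in wild type at Ka00486_606. Op replicate 1 was level with wild type and op replicate 2 far below it. The difference of -0.71 ± 0.64 (SE, adjusted p = 0.591) was 0.22 without op replicate 2, and -1.65 and past the test without op replicate 1 (adjusted p = 0.017).

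**Figure D3:**
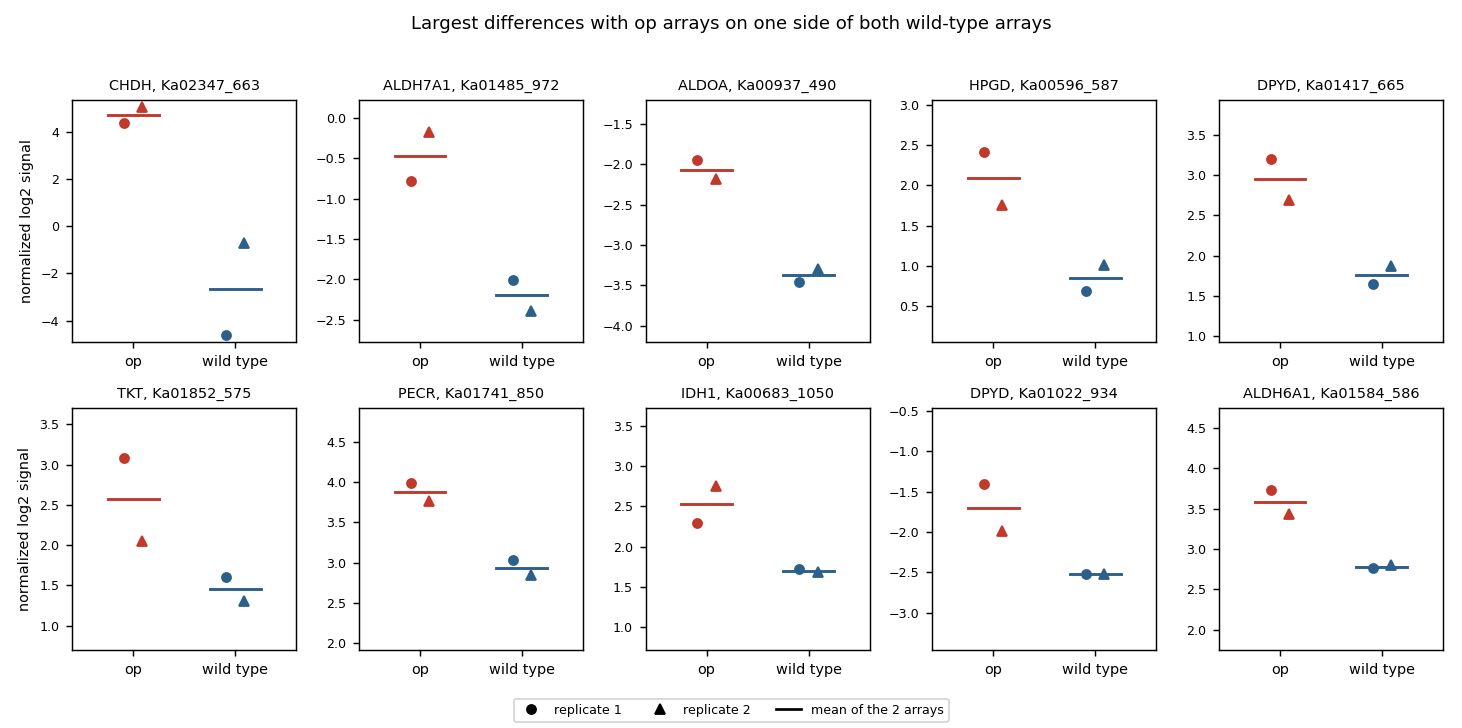
Normalized log2 signal (vertical axis) on each op and wild-type array for the 10 member ESTs with the largest differences among those with both op arrays on 1 side of both wild-type arrays; symbols as circles for replicate 1, triangles for replicate 2 and bars for the mean of the 2 arrays. Each panel spans 3 on the log2 scale, other than the CHDH panel, whose axis is wider. The op arrays lie above in all 10 panels, and the CHDH wild-type arrays are 3.90 apart.

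Among aldo-keto and carbonyl reductases, which reduce sugars and carbonyls with NADPH, only 4 of 7 probes were bright enough to be tested, and their differences ran from -0.10 to 0.41. AKR1B1, aldose reductase, which makes sorbitol from glucose, had 4.35 and 2.56 in op, against 3.09 and 3.00 in wild type. The op arrays lay on opposite sides of the wild-type arrays, 1.79 apart, and the difference was 0.41 ± 0.61 (SE, adjusted p = 0.744). Without op replicate 1 it was -0.48, and without op replicate 2 it was 1.31 and passed the test (adjusted p = 0.027). Of the fat storage markers, the 6 SCD probes were likewise higher on op replicate 1, while 6 of the other 8 were higher on op replicate 2, and their part was not tested. AKR1A1, aldehyde reductase, gave 0.36 (adjusted p = 0.340), and CBR1, a carbonyl reductase, gave -0.10 and 0.01.

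The short-chain dehydrogenases, a family that acts on lipids, steroids and prostaglandins in vertebrates, had 20 tested probes. Of these, 13 were above 0 and 7 below, with a median of 0.16, and 0 passed the test. Of all tested probes, 53.2% were above 0. PECR, an enoyl-CoA reductase of peroxisomes, was above at both probes. Probe Ka01741_850 had 3.98 and 3.77 in op, against 3.03 and 2.85 in wild type, a difference of 0.94 ± 0.17 (SE, adjusted p = 0.118), or 1.91-fold with an interval of 1.39 to 2.63, and its other probe gave 0.92 (adjusted p = 0.113). Both passed without op replicate 2, the first at 1.04, and neither did without op replicate 1, the first at 0.83.

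HPGD, the prostaglandin dehydrogenase, had 3 ESTs that differed in sign. Ka00596_587 had 2.42 and 1.76 in op, against 0.70 and 1.01 in wild type, a difference of 1.23 ± 0.28 (SE, adjusted p = 0.148), matched by 1.23 at its other probe. Both op arrays of this EST were above both wild-type arrays, and both probes passed without op replicate 2, at 1.56 and 1.49, but not without op replicate 1, at 0.90 and 0.97. Ka00103_336 had -5.36 and -4.24 in op, against -4.07 and -4.21 in wild type. Its low op value was on replicate 1, where it was not well above background, and its difference was -0.66 ± 0.40 (SE, adjusted p = 0.443). It entered the test through wild type alone. The probes of the remaining HPGD EST gave 0.21 and -0.15.

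RDH13, a retinol dehydrogenase, had both op arrays below both wild-type arrays at each probe, with differences of -0.20 and -0.18 (adjusted p = 0.536 and 0.562). The probes of HSD17B4, HSD17B10, HSDL2 and KDSR, enzymes of hydroxyacyl-CoA and sphingoid base metabolism, lay between -0.12 and 0.21. In fatty acid oxidation, ACADM, the medium-chain acyl-CoA dehydrogenase, gave 0.07 and 0.15, and HADHA, the trifunctional protein, gave 0.03 and 0.04. These 4 differences had intervals within -0.38 to 0.55.

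Of the dehydrogenases of amino acids, folate and pyrimidines, 9 of 13 tested probes were above 0 and 4 below, with a median of 0.51, and 0 passed. Of all tested probes, 53.2% were above 0. DPYD, dihydropyrimidine dehydrogenase, which begins the breakdown of uracil and thymine, was above at all 4 probes of its 2 ESTs. Ka01417_665 had 3.20 and 2.69 in op, against 1.65 and 1.87 in wild type, a difference of 1.19 ± 0.24 (SE, adjusted p = 0.125), with 1.22 at its other probe. Ka01022_934 had -1.41 and -1.99 in op, against -2.52 and -2.52 in wild type, a difference of 0.82 ± 0.24 (SE, adjusted p = 0.204), with 0.76 at its other probe. In both ESTs op replicate 1 was the higher array. Without op replicate 2 the differences of Ka01417_665 and Ka01022_934 were 1.44 and 1.11, and without op replicate 1 they were 0.93 and 0.53. The partner of the first, Ka01417_705, gave 1.49 without op replicate 2 and 0.95 without op replicate 1.

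GLUD1, glutamate dehydrogenase, which links glutamate to the citrate cycle, gave 0.51 at both probes (adjusted p = 0.324 and 0.292) with the op arrays above. GLDC, the decarboxylase of the glycine cleavage system, had -2.09 and -0.79 in op, against -2.19 and -2.10 in wild type at Ka02157_494. Only op replicate 2 stood clear of wild type. The difference was 0.71 ± 0.46 (SE, adjusted p = 0.467), and without op replicate 1 it was 1.36 and passed (adjusted p = 0.026), while without op replicate 2 it was 0.05. MTHFD2L, a folate dehydrogenase of mitochondria, had both op arrays below both wild-type arrays at each probe, at -0.46 each (adjusted p = 0.358 and 0.383). PHGDH, which begins serine synthesis from a glycolysis intermediate, gave -0.22 and -0.24 with overlapping arrays.

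**Figure D4:**
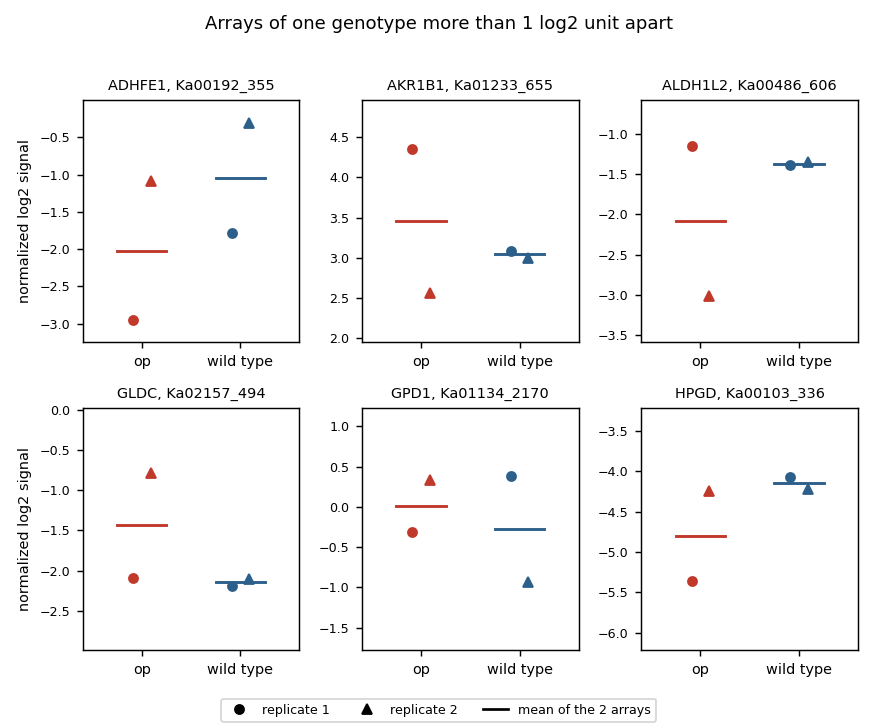
Normalized log2 signal (vertical axis) on each op and wild-type array for 6 member probes whose arrays of 1 genotype lay more than 1 apart on the log2 scale, leaving out CHDH and TKT; circles are replicate 1, triangles replicate 2 and bars the mean of the 2 arrays. For AKR1B1 the op arrays lie on both sides of wild type, for ALDH1L2 and GLDC only op replicate 2 lies apart, and for ADHFE1 replicate 2 is higher in both genotypes.

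Replicates of the members were compared with those of all probes. The op arrays lay more than 1 apart at 9 of the 99 tested members, where 7.35% of all tested probes did so, and the wild-type arrays at 5, where 1.84% did so. The median size of the gap between op arrays was 0.43 over the members and 0.30 over all tested probes, and between wild-type arrays 0.13 and 0.14. Of the 47 member ESTs with a pair of tested probes, 42 had the same sign at both, a share of 89.4% where all ESTs with such a pair had 87.9%. The 5 pairs of opposite sign were of GPD1, HPGD, HSD17B10, HSD17B4 and CBR1. Probes of 1 EST share RNA and may overlap in sequence, so their likeness is no replication.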

How the data were processed

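Testis RNA of op and wild-type larvae was labeled by the authors with Cy3 and hybridized to 1-color oligonucleotide arrays, 2 op and 2 wild type on 1 slide. The authors read the spots with Agilent Feature Extraction 9.5, which subtracted the local background, so that the deposited spot values are intensity values with flags of quality. A second deposited table, from GeneSpring, holds log2 values, which by comparison with the spots carry a shift by a 75th percentile per array and a centre per probe. Their column medians ran from -0.05 to 0.05. They were used as an alternative. The 75th percentile of the intensity was 504 and 639 in op, against 641 and 575 in wild type. Each array had 43803 probes and 1417 control spots, and 2 to 4 spots per array with an outlier flag were left out.

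Here each processed signal was taken as log2 and shifted by its array's 75th percentile, and op was set against wild type in limma 3.58.1 (lmFit, eBayes, two-sided tests, R 4.3.3). The p-values were adjusted by Benjamini-Hochberg over 30376 tested probes, with a threshold of 0.05. The number of arrays limits the precision, and with 2 against 2 an exact permutation test cannot give a p below 0.333. Members were matched by probe ID to the 1999 annotation rows used. Values on every array are given for members past the threshold (there were none), for the 10 tested ESTs with the largest differences whose op arrays lay on 1 side of both wild-type arrays, for the brighter probe of each glycolysis EST, and for members whose arrays of 1 genotype lay more than 1 apart. Where the brighter probe did not carry the large difference, its partner is given too. The UGDH, PCK1, TPM2 and TNNT3 probes with values on every array were picked with their values in view. The members, lists and tests were chosen with earlier results of these data known. No sequence of the probes was used here, and 1 result on a named gene is not reported here.

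The alternatives were normexp background correction, quantile and median scaling, no scaling, the authors' normalized table, other filters for dim signals, trend and robust eBayes, array weights, a replicate block, the methods' t-test and leaving out each array.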

Additional observations from a re-analysis of the deposited data

How the results depend on the processing

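With 2 arrays per genotype, 1 array decides many calls. The 0 member calls of the limma fit became 4 after normexp background correction, 3 with trend and robust eBayes and 2 with a replicate block, all higher in op and of CHDH, ALDH7A1, PECR or ALDOA, and stayed 0 under the other alternatives that kept all arrays, where 17 to 30 members had an unadjusted p below 0.05. Leaving out an array gave 2 to 18 member calls. Over all probes, the 96 calls (43 higher in op) became 415 (302) with normexp, 464 (310) with trend and robust eBayes, 716 (542) with the replicate block, 15 (5) with quantile normalization, 45 (12) with no scaling, 54 (31) with probes well above background on all 4 arrays, 0 of 43803 with no filter (5133 at an unadjusted p below 0.05) and 0 with the methods' t-test (4210), 88 (34) with the median shift, and 33 to 2412 with an array left out. Same-numbered arrays did not deviate together (correlation -0.03), so the numbers are taken as names and not as pairs. The median member difference of 0.22 was 0.13 with the median shift and 0.13 with no scaling, where 66 of 99 members were above 0 in each case and the median of all tested probes was -0.06 in each, and 0.22 to 0.27 with an array left out. The median glycolysis difference stayed within 0.40 and 0.52 under the other settings that kept all arrays, and was 0.38 to 0.71 with an array left out. Of 25 named probes, 20 kept their sign under every alternative run. ALDOA probe Ka00647_469 turned to -0.066 with quantile normalization, -0.069 with the median shift and -0.071 with no scaling, and with an array left out ranged from -0.14 to 0.19. The other reversals came with an array left out, where AKR1B1 ranged from -0.48 to 1.31, ALDH1L2 from -1.65 to 0.22, ALDOA probe Ka00937_627 from -0.016 to 0.44 and GPD1 from -0.37 to 0.95. The cause of these changes was not tested.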
